A study of Rattus norvegicus with 37 samples.

Results

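The livers of the 9 uninjured rats, of 37 rats in all, are described here. They were chosen by their labels alone. Of these rats, 5 belonged to the No SCI + Standard group of the SCI + In-Cage Activity sample set and 4 to the No SCI + Tiny group of the SCI + Exercise sample set (SCI, spinal cord injury). All 9 were female Sprague Dawley rats of 235 to 249 g, with an initial age of 8 to 9 weeks estimated from weight, gentled for 2 weeks and killed with ketamine at an age matching 11.5 weeks after injury in the injured rats. Hearts were arrested with KCl, the rats were perfused with PBS that held 20% RNAlater, and RNA was taken from 200 mg of liver. The In-Cage rats stayed in standard cages of 22 by 12.5 by 8 inches. The Exercise rats were moved to tiny cages of 7.5 by 8.5 by 8 inches, which restrict movement, on the schedule of the injured rats of their set, 3 days after surgery. Rats of one group were housed 2 to a cage, and the labels do not say which shared one. The uninjured rats of the Exercise set did not exercise. The name is that of the set, whose other groups swam, walked in shallow water or were injured only, by contusion or complete transection.

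The 2 uninjured groups thus differed in cage size, in the sample set and in sequencing depth at once, and these cannot be told apart. The comparison asks how far livers of the 2 sets differed where no rat was injured. The liver is built mostly of hepatocytes, which make plasma proteins, bile and lipoproteins and store and release glucose. Its other cells include bile duct cells, sinusoidal endothelial cells, stellate cells and Kupffer cells, its resident macrophages. Many hepatocyte transcripts follow feeding, time of day and hormones, and so can change between healthy animals. In whole tissue, fewer cells of a type and less RNA per cell cannot be told apart.

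The deposited table names genes by Ensembl rat identifiers, and neither it nor the reference table used here pairs these with symbols. Of 24613 identifiers, 0 could be matched among the 47357 genes of that reference. The labelled tissue was therefore not checked against liver markers, no pathway is described, and at most 2 identifiers per direction are given for a comparison.

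The Exercise libraries were the deeper ones. Their totals of reads counted on genes were 33092776, 34574860, 31524480 and 36761953, against 21379844, 23784739, 23933922, 20581132 and 22399718 in the In-Cage libraries. The ranges did not overlap, and the mean totals differed 1.52-fold (exact permutation test over the 126 relabellings, two-sided p = 0.00794, the smallest it can give; adjusted over 5 library measures, 0.0132). Any count at all was seen for 15412 to 15706 genes in the Exercise livers and for 14696 to 14881 in the In-Cage livers. When all libraries were thinned to the smallest total, the numbers were 14969 to 15246 against 14649 to 14735, again without overlap (exact permutation p = 0.00794, adjusted 0.0132). The 10 most counted genes of each library took 24.1 to 25.6% of its counts in the Exercise livers and 24.6 to 32.3% in the In-Cage livers (exact permutation p = 0.0317, adjusted 0.0317). The TMM factors, which rescale library totals to the bulk of genes, averaged 1.07 and 0.949 (exact permutation p = 0.0159, adjusted 0.0199). Values from thinned counts are given below beside some of the results that depth can move. A result without such a value may still be moved by depth.

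The uninjured livers lay apart by group. Of the squared Euclidean distance between the 9 rats over the rlog values (regularized log2 counts) of 24613 genes, 61% lay between the groups (exact permutation test, p = 0.00794, the smallest possible). With genes scaled to unit variance the share was 39.5% (exact permutation p = 0.00794). The first principal component of these 9 livers held 65.8% of the variance. Its scores were negative in all 4 Exercise rats and positive in all 5 In-Cage rats. Each of the 9 livers had its nearest neighbour in its own group. The mean distance of a liver to those of its own group was 30 to 39.7 and to those of the other group 52.1 to 68. Exercise replicate 2 was the only liver whose farthest neighbour of its own group, at 46.3, lay beyond its nearest of the other group, at 45.8.

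Differences between the uninjured groups ran through much of the transcriptome, in both directions and mostly of modest size. In the quasi-likelihood test of edgeR, adjusted by Benjamini-Hochberg, 6252 of 12174 genes tested had an adjusted p under 0.05 (51.4%), 3193 higher (26.2%) and 3059 lower (25.1%) in the Exercise livers. Such genes are said to be called. Scaled by library totals alone, a choice added after the data were seen, the balance tipped: 4045 of 5768 called genes, or 70.1%, were higher in the Exercise livers, against 51.1% with TMM. The median log2 difference over all genes was then 0.18, against -0.01 with TMM, so directions are relative to the bulk of genes. The groups did not overlap in normalized CPM (counts scaled by library size) for 4816 of the genes tested (39.6%). Of the called genes, 4667, or 74.6%, did not overlap. With each rat left out in turn, 4774 of the called genes, or 76.4%, kept an adjusted p under 0.05 in all 9 fits. With libraries thinned to equal totals, 6131 genes were called, 5992 of them among the 6252.

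Most called differences were below 2-fold. The median absolute log2 difference of called genes was 0.89, with quartiles of 0.63 and 1.26, and 3650 of them (58.4%) differed by less than 2-fold. A difference of at least 2-fold with an adjusted p under 0.05 was found for 2602 genes (21.4%), 1648 of them higher (13.5%) and 954 lower (7.84%) in the Exercise livers. Scaled by library totals, 2146 were higher and 529 lower, and with thinned counts 1600 and 951. The imbalance grew with size. At 4-fold or more, 338 genes were higher (2.78%) and 83 lower (0.682%), and at 8-fold or more 102 were higher (0.838%) and 9 lower (0.0739%). Of the 102, 81 stood under 1 CPM in the In-Cage livers, and of the 9, 8 did in the Exercise livers. Most of these largest differences thus rest on low counts in the lower group.

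**Figure D1:**
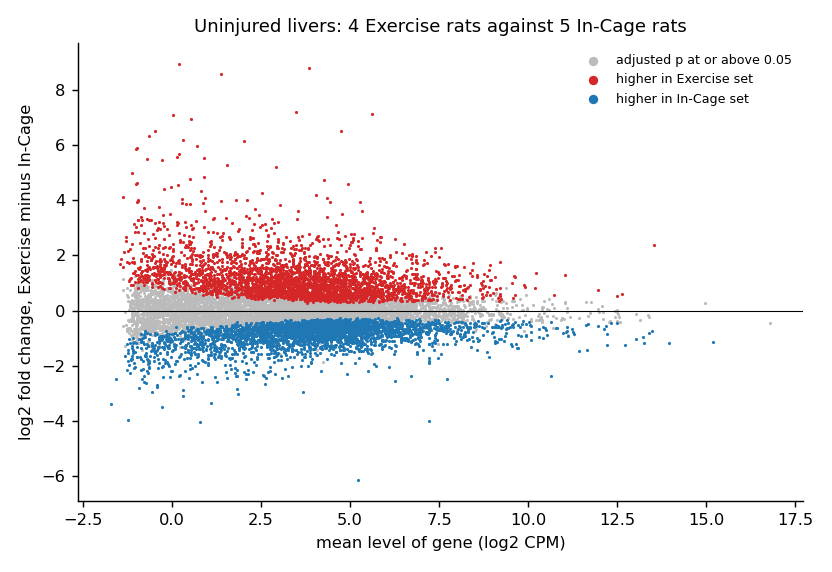
Log2 fold change between uninjured livers (vertical, Exercise minus In-Cage) against the mean level of each of 12174 genes (horizontal, log2 CPM). Coloured points are the 3193 genes called higher (red) and the 3059 called lower (blue) in the Exercise set, and the points beyond 3 on the log2 scale are mostly above 0.

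The share of called genes was not the same at all levels of expression. It was 34.8% of 1243 genes under 1 CPM, 48.8% of 4512 genes at 1 to 10 CPM, 57.2% of 5321 genes at 10 to 100 CPM and 52.6% of 1098 genes over 100 CPM. Differences of at least 2-fold ran the other way, from 30.9% of genes under 1 CPM to 14.8% of those over 100 CPM.

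The genes called higher took up more of the RNA counted in the Exercise livers, and those called lower more of it in the In-Cage livers. The higher genes held 19.8, 18.7, 20.8 and 23.2% of the counts of the 4 Exercise rats, and 9.58, 8.58, 11.4, 7.91 and 7.47% of those of the 5 In-Cage rats. The lower genes held 21.4 to 26.4% and 34.3 to 42.6%. These genes were chosen on the same libraries, so the shares describe them and carry no test. They could be tested in livers that had no part in the choice, those of the CONT SCI + Tiny groups. These rats had a moderately severe 25 g-cm contusion of the upper thoracic spinal cord, lived in tiny cages in both sets and were killed 11.5 weeks after injury. Injured rats also had surgery, gentamicin and buprenorphine. There the higher genes held 19.2% ± 1.33 (SD, n = 4) of the counts in the Exercise set and 11.8% ± 1.53 (n = 5) in the In-Cage set. The lower genes held 26.3% ± 2.71 and 35% ± 1.21 in the same order. Neither pair of ranges overlapped (exact permutation tests, p = 0.00794 each, the smallest possible). The contused groups also differed in sample set and depth, as the uninjured groups did. These tests therefore ask only whether the shares differed between the sets again in other rats. Both shares are parts of the same totals, so the tests are not independent of each other.

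ENSRNOG00000039876 was close to absent from one group. It stood at 29.9, 27.1, 33.1 and 36.7 CPM in the Exercise livers and at 0.0549, 0, 0.165, 0.0497 and 0.0466 CPM in the In-Cage livers. That is 4608 counts over 4 libraries against 7 over 5. The ratio of normalized counts was 481 (95% exact interval 233 to 1200, counting error only), and the fitted log2 difference was 8.81 (SE 0.31, adjusted p = 2.15e-08, edgeR). In-Cage replicate 3 held 4 of the 7 counts, and without it the fitted difference was 9.57. Scaled over all 37 livers, the gene lay at 22.5 to 51.3 CPM in the Exercise set and at 0 to 0.966 CPM in the In-Cage set. The sets therefore did not overlap in any condition.

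ENSRNOG00000057347 had a like pattern at a higher level. Its values were 62.4, 56.5, 60.6 and 57.4 CPM in the Exercise livers and 0.879, 0.665, 0.91, 0.497 and 0.233 CPM in the In-Cage livers. The log2 difference was 6.51 (SE 0.25, adjusted p = 2.41e-08, edgeR). Scaled over all 37 livers, which shifts each CPM slightly, its ranges were 58.9 to 406 CPM and 0.238 to 7.42 CPM, again apart.

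ENSRNOG00000021345 was lower in the Exercise livers. They held 14.8, 16, 16.7 and 16 CPM, a narrow range, and the In-Cage livers 453, 202, 168, 195 and 246 CPM, the first of them well above the others. Its log2 difference was -4.02 (SE 0.30, adjusted p = 6.27e-06, edgeR). Unlike the genes above, it overlapped between the sets once injured livers were included, with, on the scale of the 37 livers, 14 to 291 CPM in the Exercise set and 171 to 467 CPM in the In-Cage set.

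ENSRNOG00000012929 was the other lower gene. The Exercise livers had 70.4, 51.4, 65.4 and 50.1 CPM and the In-Cage livers 234, 220, 165, 281 and 191 CPM, with a log2 difference of -1.90 (SE 0.19, adjusted p = 3.06e-05, edgeR). The uninjured groups were apart, whereas, scaled over all 37 livers, the sets overlapped, at 42 to 287 and 118 to 289 CPM.

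**Figure D2:**
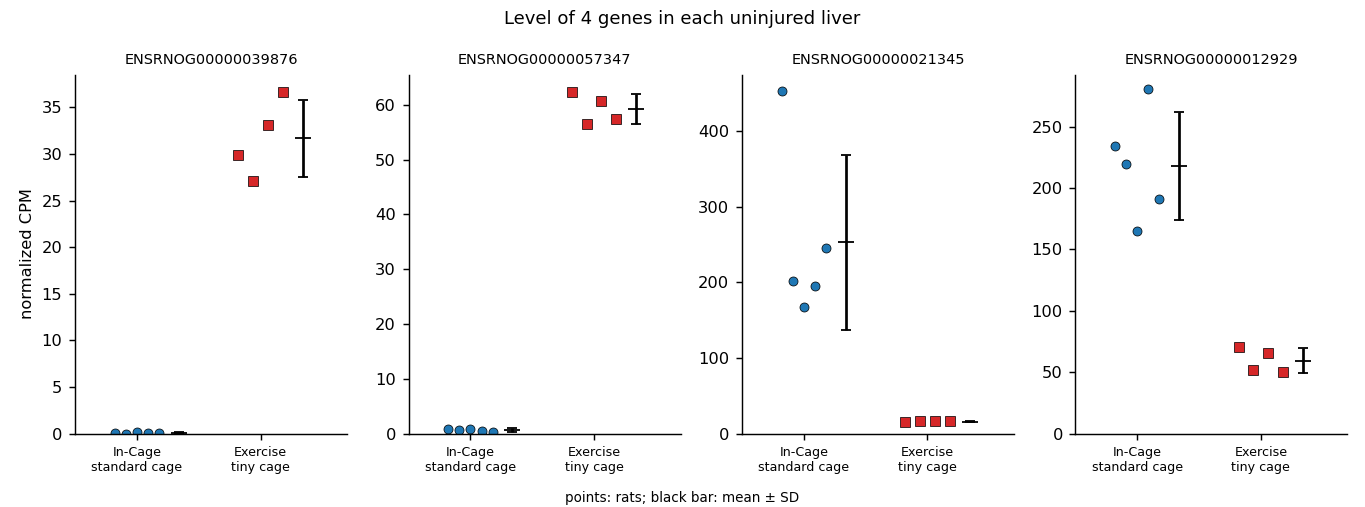
Normalized CPM (vertical, each panel on its own scale from 0) of 4 genes in each uninjured liver, with 5 In-Cage rats as blue circles and 4 Exercise rats as red squares, and the mean ± SD as black bars. The groups do not overlap in any panel, and In-Cage replicate 1 stands highest for ENSRNOG00000021345, at 453 CPM.

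More genes were counted in the Exercise livers alone than in the In-Cage livers alone. With a count in at least 1 liver of one group and none in the other, the numbers were 1158 and 509, or 958 and 682 after thinning to equal library totals. The split was wider where every liver of a group had counts. There were 16 genes at 0 in all 5 In-Cage livers with more than 3 counts in each of the 4 Exercise livers, and 0 genes the other way round. After thinning to equal totals the numbers were 10 and 0. Thinning matched the totals and not the shares taken by the most counted genes. With any count at all in each liver of one group and none in the other, the numbers were 98 and 1, or 56 and 4 after thinning. A count of 0 allows up to 3 counts, on average 0.134 CPM in an In-Cage library. Against that limit per library, the 16 genes were at least 1.24- to at least 17.6-fold higher in the Exercise livers. The gene with the highest bound had 62 to 112 counts in the Exercise livers. Not all of the 16 were absent from the whole In-Cage set. Counts were seen in 0 to 7 of its 10 injured livers, depending on the gene, and in 5 for the gene with the highest bound. The genes were picked by their zeros, so these numbers describe the libraries.

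Differences between the uninjured groups were set beside those in rats that share no library with them. In the CONT SCI + Tiny livers, 5505 of 12199 genes differed between the sets (45.1%), 2792 higher (22.9%) and 2713 lower (22.2%) in the Exercise set, or 3473 and 1767 when scaled by library totals. With libraries thinned to equal totals, 5223 were called there. Of 12037 genes tested in both, 3744 were called in both with the same direction, which is 60.4% of the 6203 called in uninjured livers and 68.7% of the 5453 called in contused livers, and 17 were called in opposite directions. Across these genes the log2 differences had a Pearson correlation of 0.79 and a Spearman correlation of 0.74, as a description across genes, which are not independent replicates. Both axes share the difference in sample set and depth. The differences were smaller in contused livers. Genes called higher in uninjured Exercise livers had a median log2 difference of 1.02 there and 0.56 in contused livers, and those called lower -0.79 and -0.46. The genes were chosen on the uninjured side, so the sizes there are not independent of the choice. Of the 102 genes at least 8-fold higher, 97 were tested in contused livers, 93 were called higher there and 45 were again at least 8-fold higher. Of the 9 genes at least 8-fold lower, 7 were tested, 5 called lower and 1 again at least 8-fold lower.

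**Figure D3:**
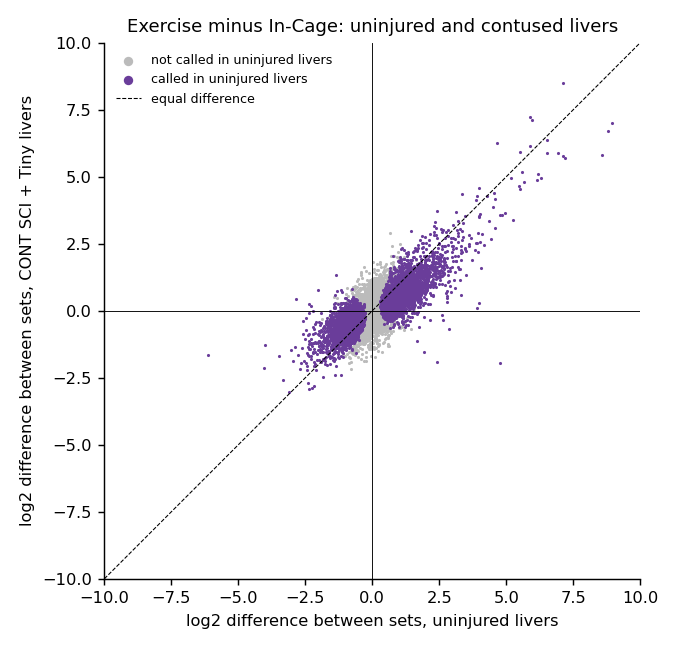
Log2 difference between the sets (Exercise minus In-Cage) in CONT SCI + Tiny livers (vertical) against that in uninjured livers (horizontal) for 12037 genes, with genes called in uninjured livers in purple. Most purple points lie in the upper right and lower left quadrants. The dashed line marks equal difference, and the median difference of purple points in either direction is smaller in contused than in uninjured livers.

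The cage label was the same for both contused groups and different for the uninjured ones. Over the 18 livers of the 4 groups, the mean distance in rlog values was 61.8 ± 8.7 (SD over 20 pairs of livers) between the uninjured groups and 49.8 ± 4.88 (20 pairs) between the contused groups. Within a set, uninjured and contused livers were nearer to each other. Their mean distance was 38.7 in the In-Cage set, where their cages differed, and 32.4 in the Exercise set, where the cage was the same. Within groups it was 27.8 to 36, the largest among the uninjured Exercise livers and above the 32.4. In these distances the cage cannot be told apart from injury or sample set, and its part was not tested. Pairs of livers share animals, so these distances carry no test.

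**Figure D4:**
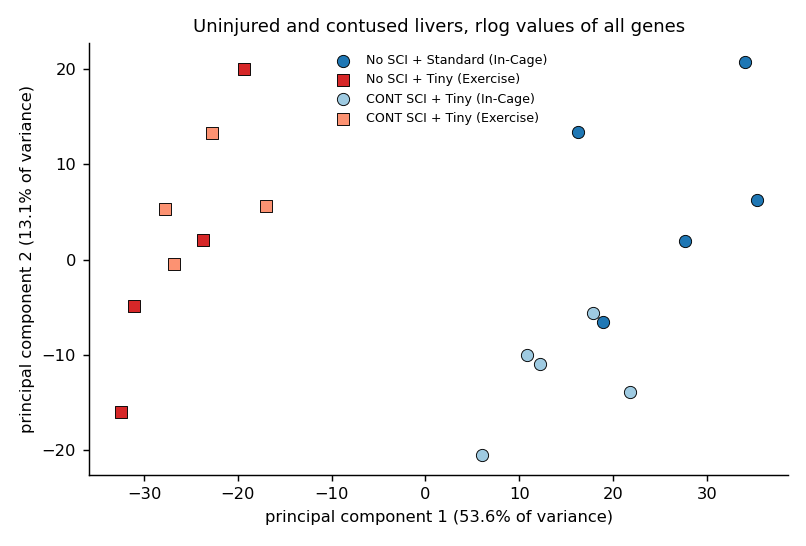
First (horizontal, 53.6% of variance) and second (vertical) principal components of rlog values in 18 livers, uninjured in dark and contused in light colours, In-Cage as circles and Exercise as squares. All 8 Exercise livers lie below 0 on the first component and all 10 In-Cage livers above 0.

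In all 28 injured livers, 18 of the Exercise and 10 of the In-Cage set whatever the injury, cage or exercise, the uninjured differences kept their direction wherever the sets were fully apart. These rats had a contusion, in tiny or large cages and with or without exercise, or a complete transection. Time after injury also differed between their groups. Without overlap between the sets, 507 of 12174 genes were higher (4.16%) and 98 lower (0.805%) in the Exercise set. Among the genes called higher in uninjured livers the number was 502 of 3193 (15.7%), and among those called lower 86 of 3059 (2.81%), with 0 in the opposite direction. Among the 5922 genes not called in uninjured livers, 17 were apart (0.287%).

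Whether the sets differed by another amount in uninjured than in contused livers was tested gene by gene. The uninjured groups differed in cage and the contused groups did not. Cage and injury, with its surgery and drugs, therefore cannot be told apart in this test. The interaction test of edgeR called 25 of 12571 genes (0.199%), 14 with a higher (0.111%) and 11 with a lower (0.0875%) Exercise minus In-Cage difference in uninjured livers. Scaled by library totals the split was 67 higher and 9 lower, and with all 37 livers in 1 fit 5 higher and 14 lower. At an unadjusted p under 0.05 there were 3163 of the 12571, above the share of 0.05 that chance alone would give. DESeq2 called 682 of the 12571. With libraries thinned to equal totals, edgeR called 23. The 25 calls therefore do not show that the other genes had the same difference in uninjured and contused livers. Of the 25 genes, 15 were called in uninjured livers alone, 5 in contused livers alone and 5 in both. Over the 12037 genes tested in both, 6203 were called in uninjured and 5453 in contused livers. Of these, 3761 were called in both and 2442 in uninjured livers alone. The 25 were chosen for a differing difference, so their split follows in part from the choice. The number called by the interaction test depended on single livers. It was 2010 without No SCI + Tiny replicate 2 and 1031 without No SCI + Standard replicate 1. Without No SCI + Tiny replicates 1, 3 and 4 it was 7, 5 and 3, and without No SCI + Standard replicates 2, 3, 4 and 5 it was 28, 43, 2 and 7. Without the contused Exercise replicates 1 to 4 it was 2, 14, 1 and 1, and without the contused In-Cage replicates 1 to 5 it was 3, 40, 3, 2 and 2. ENSRNOG00000021345 was the 1 gene called in each of these fits.

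The genes named for this test were taken, after their values were seen, as the first 2 in each direction by p. ENSRNOG00000009329 averaged 5.29 CPM ± 2.40 (SD, n = 5) in uninjured In-Cage livers and 81.2 ± 11.9 (n = 4) in uninjured Exercise livers. In contused livers it stood at 39.3 ± 16.9 (n = 5) and 42.8 ± 24.2 (n = 4), whose ranges overlapped, and the interaction was 3.81 on the log2 scale (SE 0.55, adjusted p = 0.0139, edgeR). ENSRNOG00000010588 had means of 19.1 and 50.9 CPM in uninjured livers and 42.4 and 45 CPM in contused livers (interaction 1.33, SE 0.22, adjusted p = 0.0259, edgeR).

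In the lower direction, ENSRNOG00000021345 had a smaller gap in contused livers, 301 CPM ± 37.2 (n = 5) in the In-Cage set and 125 ± 8.07 (n = 4) in the Exercise set (interaction -2.74, SE 0.30, adjusted p = 0.00019, edgeR). ENSRNOG00000019996 had means of 45.2 and 30.9 CPM in uninjured livers, with overlapping ranges, and of 18.6 and 34.3 CPM in contused livers, in the opposite order and without overlap (interaction -1.43, SE 0.26, adjusted p = 0.0435, edgeR). With all 37 livers in 1 fit, the adjusted p of these 4 genes was 0.0709 for the first 3 and 0.059 for ENSRNOG00000019996, with log2 interactions of 3.79, 1.31, -2.76 and -1.45 in the order above. That fit called 19 genes, 8 of them among the 25. With 1 liver left out in turn, ENSRNOG00000009329 was called in 16 of 18 fits, ENSRNOG00000010588 in 11, ENSRNOG00000021345 in 18 and ENSRNOG00000019996 in 8.

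**Figure D5:**
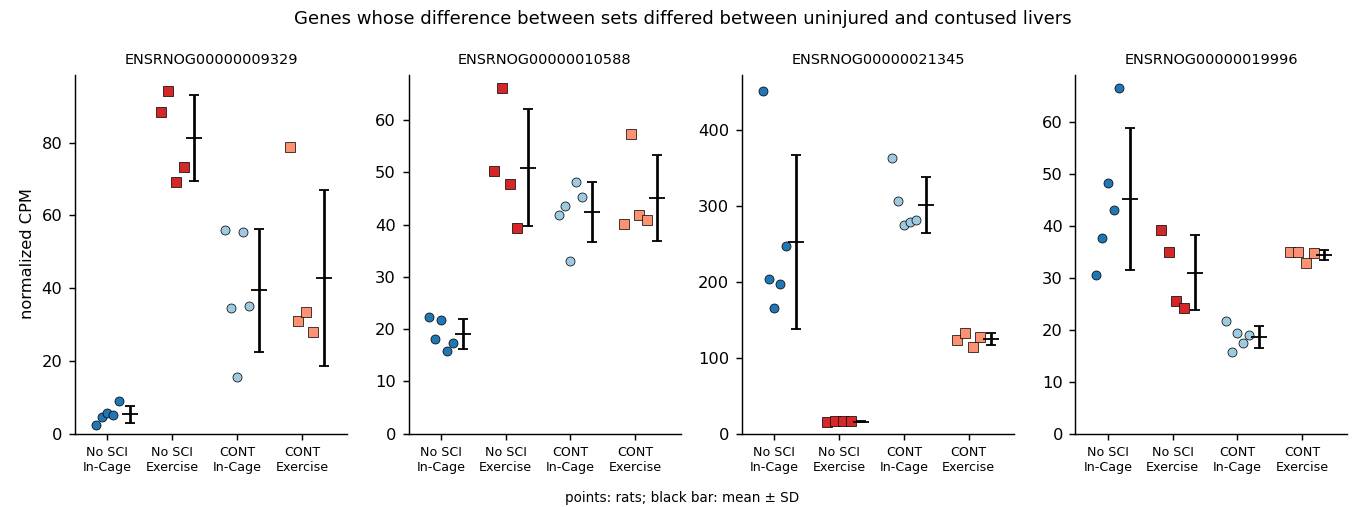
Normalized CPM (vertical, each panel on its own scale from 0) of 4 genes in the 18 livers of the uninjured and contused groups, points for rats and black bars for the mean ± SD. ENSRNOG00000009329 is at 2.3 to 8.95 CPM in uninjured In-Cage livers and at 15.5 CPM or more in the other 3 groups.

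The spread among rats had a like median in both groups. Over 8917 genes with a mean of at least 100 counts, the median SD of log2(CPM + 1) was 0.224 among Exercise and 0.235 among In-Cage livers. An SD over 1 was found for 52 genes among Exercise and 37 among In-Cage livers. Of these, 16 were the same, which is 30.8% of the first and 43.2% of the second. Single rats differed in how far they lay from their group. Exercise replicate 2 differed from the other rats of its group by a median of 0.293 on the log2 scale and by over 1 for 338 genes, and replicate 4 by 0.248 and for 188 genes. In the remaining 7 rats the median was 0.125 to 0.243, with 56 to 111 genes.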

How the data were processed

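RNA of each liver was poly-A enriched, made into stranded libraries and sequenced single-end by the authors, who aligned the reads to the rat genome (Rn6) with STAR, used HTSeq to assign them to Ensembl genes, those of the mitochondrial genome excepted. FastQC 0.10.1 and HTSeq stand in the submitters' processing notes. The deposited file is a single table of raw counts for 24613 genes in 37 samples, without normalization. All sample columns could be tied to labels. Groups and replicate numbers come from the sample titles. Totals, given with the results, set the counting error, and the number of rats sets the precision of well-counted genes. The lowest reduced chi-square between 2 libraries of an uninjured group was 34.6, so each was kept as a sample.

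From these counts, edgeR 4.0.16 in R 4.3.3 (TMM, filterByExpr with a minimum count of 10 and total of 15, glmQLFit and glmQLFTest with robust estimation, Benjamini-Hochberg adjustment, threshold 0.05) tested the uninjured groups on their 9 samples, the CONT SCI + Tiny groups on their own 9, and the interaction on all 18. The standard error is the log2 fold change divided by the square root of F. DESeq2 1.42.0 gave rlog values and an alternative test. CPM used TMM-scaled totals of the libraries in the fit concerned. Exact tests permuted labels over samples, two-sided, except for the distance share, where larger shares were counted. Rats were separate animals, but those of a cage may share its effects. In each direction, called genes with at least a 2-fold difference, no overlap between groups and 100 or more counts on average were ordered by p to choose those named. The rule had also asked for a symbol, which no identifier had, so the first 2 were taken. The 37 lists of pathway and cell type genes prepared by symbol could not be used. Sequences of named genes are not given for the same reason. The groups, lists and tests were chosen with earlier results of these data known. In 12097 genes simulated for the uninjured comparison, 200 of them changed, edgeR recovered 67.3% of those with a log2 change of 1 and 98.9% at 2, and called 6 unchanged genes. DESeq2 recovered 81.3% and 100% and called 35 unchanged genes. The simulation changed far fewer genes than were called in the data and drew the rats independently. It therefore does not vouch for the number of genes called. Alternatives were another test, normalization, filter, depth, set of samples, a replicate block and leaving out each sample.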

Additional observations from a re-analysis of the deposited data

Results flagged for a closer look

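For normally distributed values, chance sets about 1 in 20 groups apart by the Dixon criterion for a single distant sample. That would be 2.3 of the 46 groups checked, and 6 were found. Many of the 46 are measures of the same libraries, and others are genes chosen by p on these data. The 2.3 is therefore only a rough guide. Exercise replicate 3 had 25.6% of its counts in its 10 most counted genes, the other uninjured Exercise rats 24.1 to 24.2%. Exercise replicate 2 had a TMM factor of 1.17, the others 1.03 to 1.05. In-Cage replicate 1 held 453 CPM of ENSRNOG00000021345, the other uninjured In-Cage rats 168 to 246 CPM.

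Among the contused Exercise livers, replicate 1 held 78.8 CPM of ENSRNOG00000009329 and the others 27.9 to 33.5 CPM. Replicate 2 held 57.4 CPM of ENSRNOG00000010588, against 40.2 to 41.8 CPM, and replicate 3 held 32.9 CPM of ENSRNOG00000019996, against 34.7 to 34.9 CPM.

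The difference between the sets differed between uninjured and contused livers for 25 genes in the edgeR interaction test. It did so by 3.81 on the log2 scale for ENSRNOG00000009329, 1.33 for ENSRNOG00000010588, -2.74 for ENSRNOG00000021345 and -1.43 for ENSRNOG00000019996. The uninjured groups differed in cage and the contused groups did not, so cage and injury cannot be told apart here. What underlies these differences was not tested.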

How the results depend on the processing

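The count of 6252 genes differing between uninjured livers was 4674 to 6981 under 7 alternatives and 5238 to 6705 with 1 rat left out. The count at 2-fold or more was 2297 to 3038 and 2316 to 3049, and that for contused livers 4359 to 5738 and 4487 to 5557. The interaction count of 25 was 682 by DESeq2, 12 with a replicate block, 76 by library totals and 1 to 2010 with 1 liver left out, and the cause was not tested. The distance share of 61% was 39.5 to 75.7% with other transformations, scalings or gene sets (exact p = 0.00794 in each) and 59.3 to 67.2% with 1 rat left out. The correlation of 0.79 across genes was 0.74 to 0.82 with 1 liver left out. Scaling by library totals and the alternatives for the correlation were chosen after seeing the data.

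Same-numbered uninjured rats had correlations of deviations of -0.283, -0.296, -0.104 and -0.126, and 0 of 4 correlated best with their own number. These 4 values carry no test, so they cannot exclude a link between samples of the same number. The replicate block gave 4674 calls between uninjured livers, 4621 of them among the 6252. Of 164 alternative values for single named genes, 0 turned direction and 23 lost the threshold. The 23 were all interaction values, and no value for the uninjured differences lost it. Depth limits the genes under 1 CPM, and with 4 rats against 5 the exact tests cannot go below 0.00794.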
